A study of Mus musculus with 4 samples.

Results

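CTCF was mapped by chromatin immunoprecipitation followed by sequencing in mouse embryoid bodies at day 6 of differentiation, and the peaks of the CTCF library called against input DNA are described here. All peaks of the deposited CTCF list that lie on autosomes 1 to 19 were taken, which gave 51606 of the 52446 peaks in that list (98.4%), with 826 more on chromosome X and 14 on chromosome Y. The series has 4 libraries, 1 each for CTCF, Trim33, histone H3 acetylated at lysine 27 (H3K27ac) and input. The Trim33 and H3K27ac lists, with 4401 and 29461 autosomal peaks, served only to annotate CTCF peaks.

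The CTCF and input samples had the same source. Embryoid bodies were grown from embryonic stem cells derived from Trim33FF: UbcCreERT2 blastocysts, of the strain given as Outbred - B6:129Sv, at passages 8 to 12. The labels name no treatment, so both samples carry the same Trim33 and Cre alleles, and no sample without them was analysed here. The stem cells were kept with LIF and the inhibitors PD0325901 and CHIR99021, and differentiation was in medium with 20% serum. Chromatin was pooled from 20 dishes. The CTCF sample was precipitated with an anti-CTCF antibody, and the input sample had no antibody. Per the authors' deposited table, 33090822 CTCF tags and 25729171 input tags entered the peak calling, and 26.46% of CTCF reads lay in peaks. With 1 library of each kind there is no replicate check, and no p-value is given. Embryoid bodies hold several cell types, and in this bulk chromatin fewer cells with CTCF at a site and less CTCF per cell cannot be told apart. No RNA was measured in these libraries, so the cell types were not checked against marker genes.

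CTCF is a DNA-binding protein with a row of zinc fingers that reads a long motif in the major groove. It is known for insulators, which keep enhancers from neighbouring promoters, and it halts cohesin on the chromatin fibre, so that pairs of CTCF sites become the anchors of loops. The direction of the motif sets the side on which cohesin is halted. CTCF is present in nearly all cell types, and many of its sites are shared between tissues.

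To show examples of the core of the CTCF motif, CCANNAGNNGGC, where N is any base, stretches of 40 bases are printed. They are from the 8 highest peaks whose summit lies in a promoter window and whose window holds the core. The 8 were thus chosen for holding it. Among the 20 genes with the highest summits in their window, only 4 had the core. The capitals mark that core, and each line reads 5′ to 3′ on the strand that holds the core as written. Sequences are from the RefSeq promoter table of GRCm38.p6, the assembly of build mm10.

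Vps18: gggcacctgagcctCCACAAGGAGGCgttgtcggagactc
Wdr41: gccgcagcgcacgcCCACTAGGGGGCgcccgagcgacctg
Tsfm: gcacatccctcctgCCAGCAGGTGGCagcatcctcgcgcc
Adprhl2: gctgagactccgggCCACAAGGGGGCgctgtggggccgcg
Gm41504: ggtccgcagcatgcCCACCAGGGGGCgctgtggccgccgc
Snx18: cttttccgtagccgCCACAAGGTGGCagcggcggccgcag
Rapgef1: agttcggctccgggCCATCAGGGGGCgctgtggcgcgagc
Fam133b: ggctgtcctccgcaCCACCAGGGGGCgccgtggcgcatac

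Vps18, an endosomal sorting gene, had its stretch at chr2:119288649-119288688, minus strand, under a CTCF peak of fold 52.6 that also overlapped Trim33. Wdr41 had its stretch at chr13:94976297-94976336, plus strand, and the peak of fold 52.2 overlapped H3K27ac. Tsfm, which encodes a mitochondrial translation elongation factor, had its stretch at chr10:127030884-127030923, minus strand, with a fold of 50.1. Adprhl2, a gene of ADP-ribose removal, had its stretch at chr4:126321734-126321773, minus strand, with a fold of 49.4 and a summit 3.5 bp from the centre of the core. The stretch for Gm41504, a predicted gene, was at chr16:94713902-94713941, minus strand, with a fold of 49.4. Snx18, a sorting nexin gene, had its stretch at chr13:113618688-113618727, minus strand, with a fold of 48.4, and this peak overlapped both H3K27ac and Trim33. The stretch for Rapgef1, a Rap exchange factor gene, was at chr2:29619672-29619711, plus strand, with a fold of 48.2 and the summit 71.5 bp away, the farthest of the 8. Fam133b had its stretch at chr5:3543752-3543791, plus strand, with a fold of 45.8. In 7 of the 8 the core reads in the direction of the gene, the exception being Vps18.

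The core was searched on both strands of 31396 promoter windows of 300 bases, each from 250 bases before to 50 after a gene start, and 2.47% of all windows held it. A CTCF summit lay in 1795 windows, or 5.72% of all. Of the windows with a summit, 241 (13.4%, 95% Wilson interval 11.9 to 15.1) held the core, against 535 of 29601 (1.81%, 1.66 to 1.97) without one. The 31396 windows belong to 25748 genes and can share sequence and peaks, which these intervals do not take into account. A looser form with 1 fewer fixed base, CCNNNAGNNGGC, which every match to the core also fits, was in 8.73% of all windows and in 34.8% (32.59 to 36.997) of those with a summit. Seen from the motif, 31.1% of the 776 windows with the core had a summit, against 5.08% of the windows without it. Most of the windows with a summit thus held neither form, and no match says only that these letters are not in this window.

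The share with a motif followed the fold of the highest summit in the window. The core was in 2 of 74 windows (2.70%) where that fold was under 5, in 5.62% of 516 from 5 to under 10, in 15.3% of 497 from 10 to under 20, in 20.0% of 401 from 20 to under 30 and in 17.6% of 307 from 30 up. The looser form was in 5.41%, 19.6%, 36.2%, 45.6% and 50.8% of the same windows. For the core, the upper 2 classes have overlapping intervals (16.3 to 24.1 and 13.7 to 22.2), whereas the looser form went up at each step.

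Cores stood close to summits. Where a position of the windows lay within 25 bp of the nearest CTCF summit there were 15.6 cores per 10 kb searched (exact Poisson 95% interval 12.98 to 18.57), against 6.25 at 25 to 50 bp, 2.35 at 50 to 100 bp and 0.977 at 100 to 200 bp. At 1000 bp or more it was 0.567 (0.513 to 0.625). These intervals cover counting error only. Of the 213 distinct cores within 100 bp of a summit, 146 read along the gene and 67 against it, while of the 405 cores at 1000 bp or more, 198 read along the gene. The free bases of the core differed as well. Position 4, counted from 1 at the first C of the core, was C in 45.5% and G in 45.5% of the 213 cores near a summit, and C in 17.8% and G in 55.3% of the 405 far from one. Position 8 was A or G in 39.9% and 54.0% near a summit, and C in 4.69%, where C made up 26.2% far from one.

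The peaks were mostly narrow and spread widely in height. Fold over background, the authors' value for each peak, had a median of 9.46, quartiles of 6.42 and 16.3, and a range from 2.81 to 60.6. A fold of 20 or more was reached by 8447 peaks (16.4%), of 40 or more by 304 and of 50 or more by 32. The median width was 418 bp with quartiles of 253 and 797 bp, and the range was 168 to 8248 bp. The narrowest width equals the fragment length of 168 bp that the authors' deposited table gives for this library. Summits sat near the middle of their peaks, at a median of 49.4% of the width.

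Higher peaks were wider. Across the 51606 peaks the rank correlation of fold with width was 0.72, a description of peaks from 1 library, whose fold and width both come from the same tags. The median width stayed between 240 and 273 bp over the lowest 4 deciles of fold and then went up to 1087 bp in the highest decile. Overlap with the other lists was also highest at the top. Overlap needs 1 bp, so wider peaks have more room for it, and the part of width was not tested. Over all autosomal CTCF peaks, 8.25% overlapped H3K27ac and 3.70% Trim33. H3K27ac overlapped between 6.30% and 8.18% of peaks in deciles 1 to 8, 10.0% in decile 9 and 16.4% in the highest. Trim33 overlapped 0.543% of the lowest decile and 20.8% of the highest. A gene end lay within 1 kb of the summit for 15.7% to 18.2% of peaks in deciles 1 to 9 and for 26.6% in the highest. The authors used a single input library for all 3 lists.

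**Figure D1:**
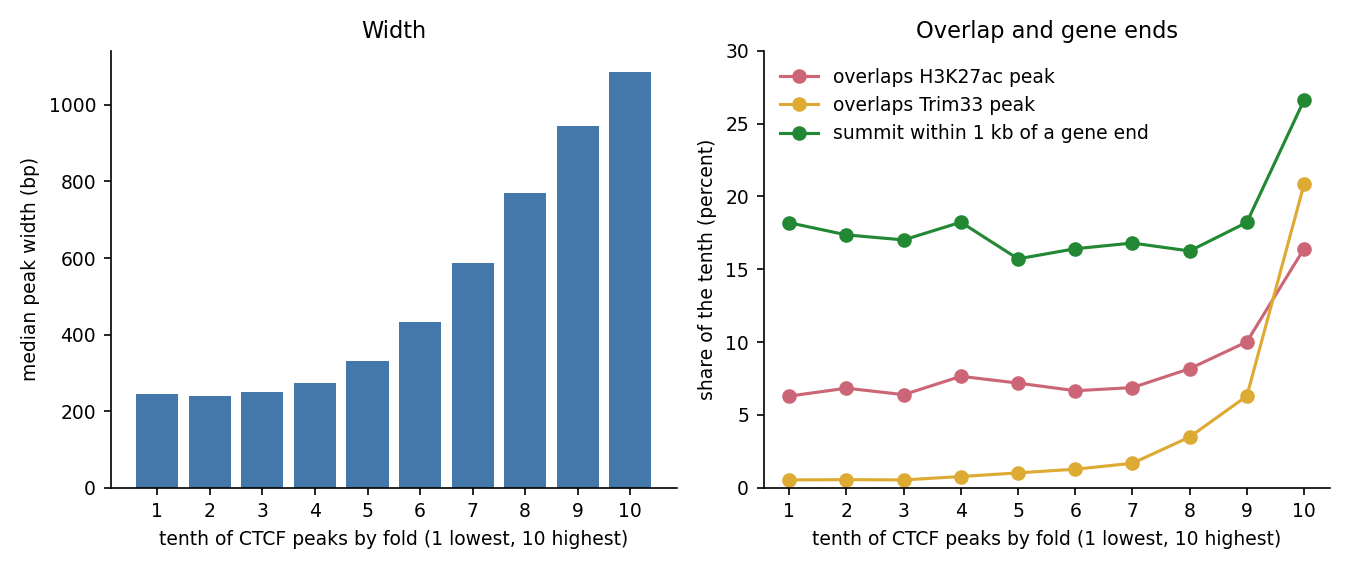
Median width in bp (left, bars) and share of peaks in percent (right, points) for CTCF peaks in 10 equal groups by fold, from 1 (lowest) to 10 (highest). Width goes from 244 bp to 1087 bp, and the shares at H3K27ac (16.4%), Trim33 (20.8%) and gene ends (26.6%) are highest in group 10.

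The distances between neighbouring summits had a pair of modes. The median spacing was 11112 bp, with quartiles of 1304.5 and 41226.5 bp. In bins of equal width on a log scale, the counts were highest at 794 to 1000 bp (2658 intervals), lowest between the modes at 2512 to 3162 bp (963) and high again at 25119 to 31623 bp (2393). A next summit lay within 1 kb in 20.0% of intervals, within 2 kb in 30.4% and within 10 kb in 48.3%, and 89.3% of intervals were at most 100 kb. When only peaks at or above the median fold were kept, the counts rose steadily from the shortest intervals to the long mode and the median spacing was 33619 bp.

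Neighbours 500 bp to 2 kb apart were more unequal in height than those nearer or farther. In the 5389 pairs 1 to 2 kb apart the higher peak had a median fold of 17.9 and the lower one 5.94, and the ratio of the pair was at least 2 in 66.9% of them. In the 7559 pairs 500 bp to 1 kb apart the medians were 15.6 and 5.94, and 63.8% had a ratio of at least 2. In the 2760 pairs up to 500 bp apart the medians were 10.7 and 5.94, and 39.6% had such a ratio. In the 9267 pairs 20 to 50 kb apart they were 15.1 and 7.35, and 38.3% had a ratio of at least 2. The folds of neighbours ran opposite to each other at 500 to 2000 bp, with a rank correlation of -0.44 over 12948 pairs. They showed little relation over the 2760 nearest pairs (-0.06) and almost no relation over 31509 pairs more than 5 kb apart (0.02). Peaks 500 bp to 1 kb apart were separated by a median gap of 211 bp between their edges.

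Joining summits less than 2 kb apart, a choice made after the short mode had been seen, left 35898 sites, of which 25684 were single peaks and 10214 were groups of 2 to 12 peaks. The highest peak of a group had a median fold of 17.5 and a width of 835.5 bp. The 15708 other peaks of these groups, 30.4% of the list, had medians of 6.17 and 284 bp, and single peaks had 10.7 and 430 bp. In groups of 3, the highest peak was the middle one in 46.9% of 2184 groups, and the first or the last in 26.8% and 26.3%. The share of sites made of more than 1 peak went from 4.60% in the lowest decile of sites to 50% in the highest. A site takes the fold of its highest peak, so groups rank above single peaks in part by construction. The other peaks of a group overlapped H3K27ac in 5.56% and Trim33 in 0.809%, against 7.78% and 6.80% for the highest peak of the group. The core motif was in 15 of 249 promoter windows whose highest summit was such a lower peak (6.02%, 3.68 to 9.70), and in 76 of 380 whose highest summit was the top of its group (20.0%, 16.3 to 24.3). Fold sets the highest peak of a group apart from the others. In the whole list, Trim33 overlap and motif share were higher at high fold, and H3K27ac overlap was higher mainly in the upper deciles. H3K27ac overlap did not follow median fold across all classes, since single peaks overlapped H3K27ac in 10.1% and Trim33 in 4.24%. The lowest decile of all peaks overlapped H3K27ac in 6.30% and Trim33 in 0.543%. The core was in 5.62% of all windows with a fold from 5 to under 10. Peaks of equal fold were not compared between the classes.

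**Figure D2:**
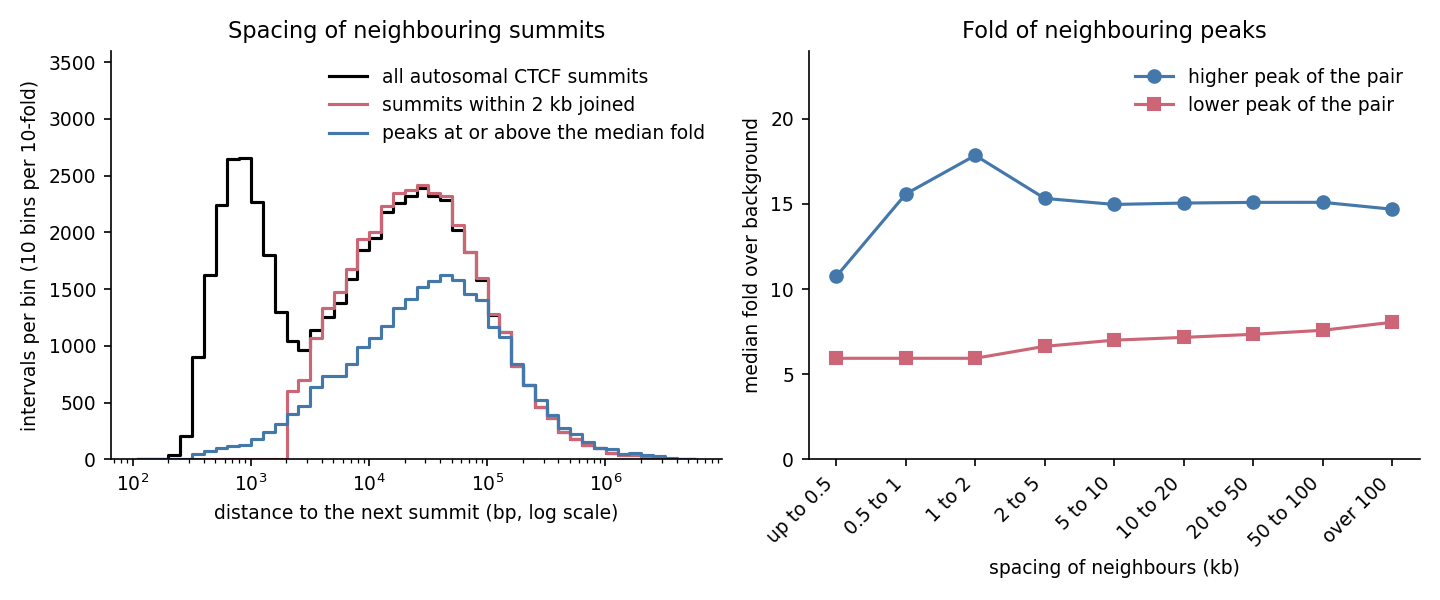
Left, number of intervals between neighbouring CTCF summits by their length (bp, log scale) for all peaks, for sites after joining within 2 kb and for peaks at or above the median fold. Right, median fold of the higher and of the lower peak of neighbouring pairs by spacing. The mode near 1 kb is seen among all peaks and not among peaks at or above the median fold (joining removes it by construction), and the pair medians are farthest apart at 1 to 2 kb (17.9 and 5.94).

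Runs, defined as 5 or more summits each within 10 kb of the next, held 12534 peaks or 24.3% of the list (95% Wilson interval 23.9 to 24.7) in 1905 runs with a median span of 12.7 kb. Their peaks were lower, with a median fold of 7.82 against 9.93 outside runs. H3K27ac overlapped 7.57% of peaks in runs and 8.47% outside. By fold, the share in runs was 38.3% in the lowest decile, 16.5% in decile 6 and 24.8% in the highest. After joining within 2 kb, 3.17% of sites were in runs.

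The largest run had 24 summits over 53.6 kb of chromosome 4, from 152131632 to 152185246, across Espn, which encodes an actin-bundling protein, Hes2, a gene of the Hairy and enhancer of split family, and Acot7, a thioesterase gene. Its highest fold was 36.4 and its median 8.72, 11 of the peaks were at or above the median of the list, 1 overlapped H3K27ac, and 7 sites were left after joining. The next had 21 summits each, at Nmur1 (a neuromedin U receptor gene) and Tex44 on chromosome 1, and across Madcam1, Tpgs1, Cdc34 (a ubiquitin-conjugating enzyme gene), Gzmm and Bsg on chromosome 10. In the latter, 4 peaks overlapped H3K27ac. Runs of 19 lay across Arhgap9, Gli1 (a transcription factor of hedgehog signalling) and Inhbe on chromosome 10 and at the ribosomal protein gene Rpl38 on chromosome 11, with highest folds of 35.1 and 34.9.

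CTCF summits were denser at gene starts than around them, and at gene finishes they were not. Of the autosomal summits, 18.1% (17.8 to 18.4) lay within 1 kb of an end of an annotated gene, 49.2% inside a gene and farther from any end, and 32.7% between genes. For 16457 protein-coding genes whose strand is given, there were 163 summits per kb per 1000 genes within 500 bp of the start, against 47.7 at 5 to 10 kb before it and 42.8 at 5 to 10 kb after it. Around the finish the count was 54.9 within 500 bp, 48.6 at 5 to 10 kb before, 61.4 over the first 5 kb after and 54.1 at 5 to 10 kb after it, so the count at the finish lay within the range of its flanks. Of the summits near a start only, 49.3% overlapped H3K27ac, against 5.77% of those near a finish only, and their median folds were 10.0 and 9.09.

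The highest peaks at starts sat just before them. Each summit was set against its nearest start. The 834 summits in the last 250 bp before a start had a median fold of 18.7 (quartiles 9.35 and 28.5), and 46.9% of them (43.5 to 50.3) reached a fold of 20. The 768 summits in the first 250 bp after a start had a median fold of 9.48, and 19.4% (16.8 to 22.3) reached 20. At 500 to 250 bp before a start the median was 10.0, and at 250 to 500 bp after it was 8.09. H3K27ac overlapped 54.0% of the peaks with a summit in the last 250 bp before a start and 58.2% of those in the first 250 bp after it. Lower peaks of a group made up 10.4% before and 21.4% after the start in these windows.

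**Figure D3:**
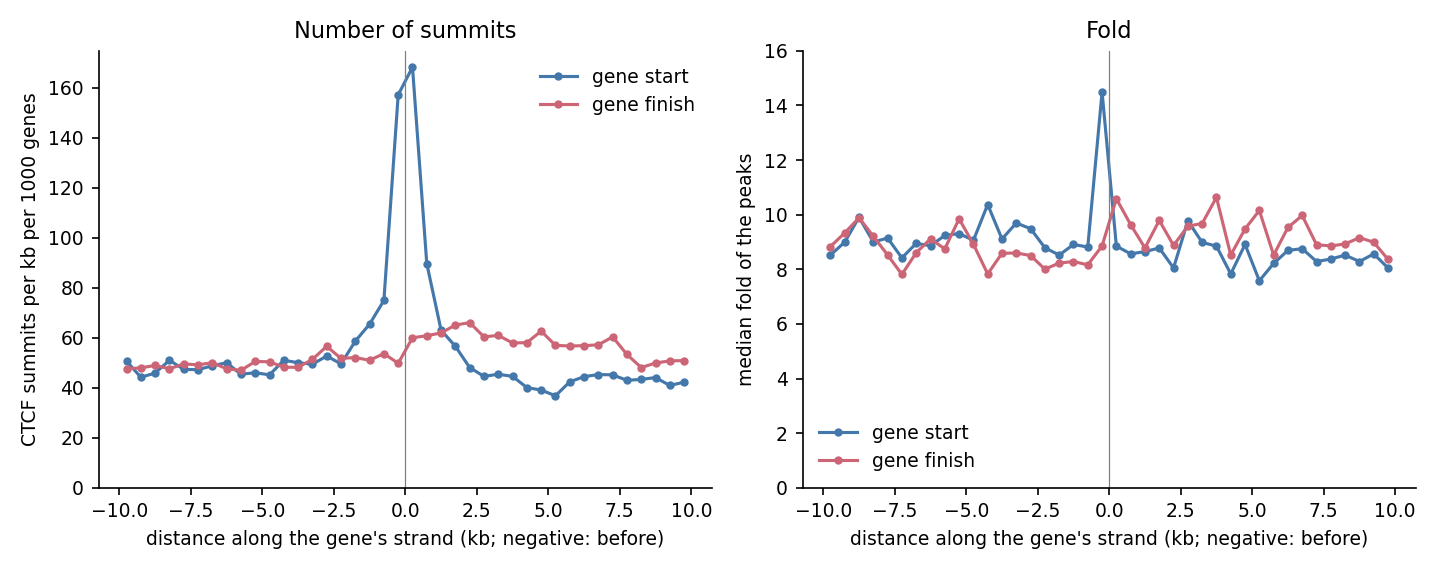
CTCF summits per kb per 1000 genes (left) and median fold of the peaks (right) in bins of 500 bp around the starts and finishes of 16457 protein-coding genes, along the strand of the gene. The count is highest on both sides of the start (157 and 168), and the fold is highest in the bin just before it (14.5).

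Density per autosome ranged from 34.9 peaks per Mb on chromosome 11 to 14.7 on chromosome 3, a ratio of 2.38, around a value of 21.0 for all autosomes. Chromosomes 19, 7, 17 and 5 came next, with 27.4, 25.6, 25.5 and 25.2 peaks per Mb, and chromosomes 14, 13 and 18 were near the lower end with 15.3, 15.4 and 16.2. The median spacing was 7004 bp on chromosome 11 and 19292 bp on chromosome 13. Counts per chromosome equalled those in the authors' deposited table for all 19. Across the 19 autosomes, peaks per Mb followed the CpG islands per Mb of that table with a Pearson correlation of 0.98, and a Spearman correlation of 0.93. With genes per Mb they were 0.84 and 0.86. Per CpG island there were 3.32 peaks over all autosomes, from 3.03 on chromosome 13 to 3.84 on chromosome 1. Denser chromosomes had lower peaks, with a Pearson correlation of -0.75 between density and median fold, and the medians ran only from 8.75 on chromosome 5 to 10.4 on chromosome 18. These are descriptions over 19 chromosomes of 1 library.

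**Figure D4:**
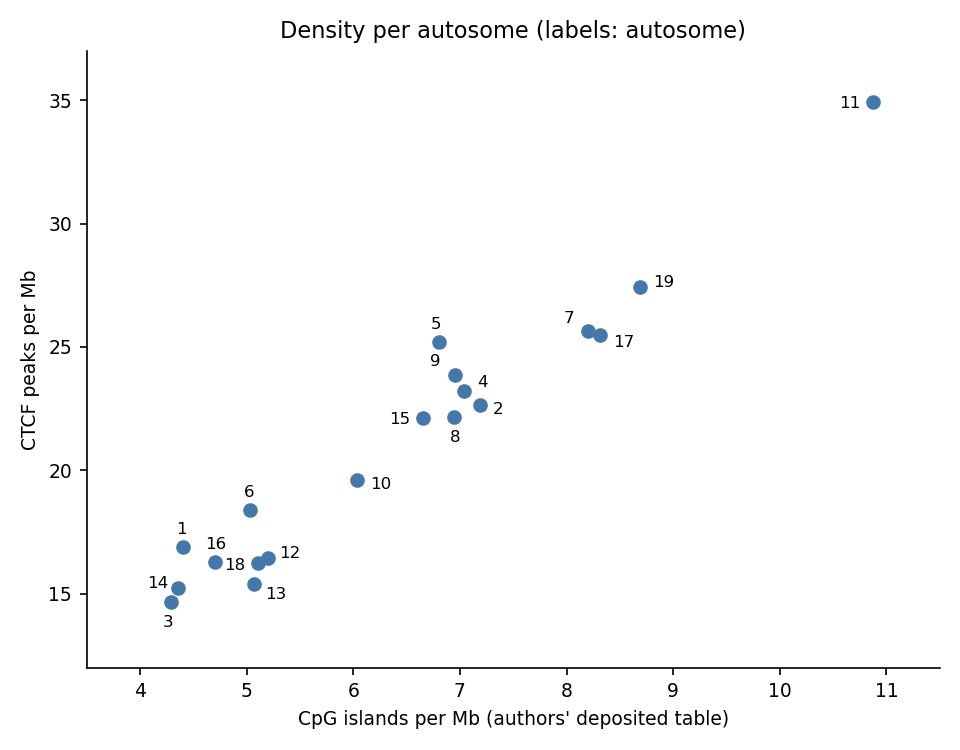
CTCF peaks per Mb against CpG islands per Mb for each of the 19 autosomes, with the autosome number beside its point (the axes do not start at 0). Chromosome 11 lies at the top with 34.9 peaks per Mb, and chromosome 3 at the bottom with 14.7.

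In windows of 1 Mb the median was 15 peaks, with quartiles of 6 and 30. The densest 240 of the 2395 windows held 33.0% of the peaks. Windows with 20 or more protein-coding genes had a median of 50 peaks, and windows with none had 1. The densest window, chromosome 7 from 19000001 to 20000000, had 141 peaks and 55 protein-coding genes, among them the DNA repair genes Ercc1 and Ercc2 and the NF-kappaB gene Relb. The next, chromosome 2 from 168000001 to 169000000, had 124 peaks with only 10 protein-coding genes, among them Sall4, a zinc finger gene of pluripotent cells, Nfatc2 and Atp9a. The third, chromosome 10 from 80000001 to 81000000, had 123 peaks and 54 genes, among them Stk11 and Tcf3. After joining within 2 kb these windows had 69, 58 and 64 sites.

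No peak was found in 126 windows between the outermost peaks of their chromosomes. Sensory receptor genes were frequent in the gene-rich windows among them. In 24 windows with no peak and at least 5 protein-coding genes, 156 of 318 gene entries were olfactory or vomeronasal receptors, families that have 1100 and 352 of the 20665 autosomal protein-coding genes. The rest were other genes. The window at chromosome 2 from 89000001 to 90000000 had 42 protein-coding genes and no peak, and those at chromosome 7 from 22000001 to 23000000 and from 23000001 to 24000000 had 28 and 24. The longest interval between summits, 4.09 Mb on chromosome 7, spans 107 protein-coding genes, many of them vomeronasal receptor genes of the Vmn1r family. The next, 3.86 Mb on the same chromosome, spans 35, many of the Vmn2r family, and a stretch of 3.59 Mb on chromosome 14 spans none. These families hold near-identical copies, where a list made from unique alignments is uncertain.

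The 20 highest peaks had folds from 52.2 to 60.6, and 14 of them lay within 1 kb of an end of their gene. For 12 of the 14 that end was the start and for 1, Csrp1, the finish, while the strand of Dnajc11 is not in the table used. Over all autosomal summits, 12.9% lay within 1 kb of an end of a protein-coding gene. H3K27ac overlapped 13 of the 20 and Trim33 10, both together 4, and only the peak near Myl3 overlapped neither. Over all autosomal CTCF peaks, 8.25% overlapped H3K27ac and 3.70% Trim33, and in the highest decile of fold 16.4% and 20.8%. The highest peak, of fold 60.6, was 38 bp from an end of Dnajc11, at chromosome 4 from 151933210 to 151934510, where it overlapped an H3K27ac peak. It was followed by Med4, a Mediator subunit gene, with 58.3 at 106 bp before the gene, and by Glrx3 with 57.7 at 8.81 kb from it. Dhx8, a splicing helicase gene, had 57.6, and Csrp1, a LIM domain gene, 57.1.

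Most of these peaks stood close to gene starts. Gorasp2, a Golgi stacking protein gene, had a fold of 56.2 with the summit 9 bp from its start, and Nipsnap2 had 52.7 at 8 bp. Wdr41 had 52.2 at 1 bp. Ago1, the gene of an Argonaute protein of small RNA silencing, had 54.8 at 35 bp, Crls1, the cardiolipin synthase gene, 54.5 at 66 bp, and Dhrs13 55.6 at 71 bp. Vps18 had 52.6 at 94 bp, B3glct, a glucosyltransferase gene, 56.2 at 154 bp, and Fmo5, a flavin monooxygenase gene, 52.9 at 278 bp. The summit of the peak named for Fmo5 lay in a promoter window of Chd1l. Trrap, an adaptor of histone acetyltransferase complexes, had 52.7 with the summit 977 bp inside its outermost start. That summit lay in a promoter window of Trrap.

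The other peaks of this group were away from ends. Stag1, which encodes a subunit of cohesin, held a peak of fold 52.9, 45.8 kb inside the gene and over both an H3K27ac and a Trim33 peak. Hoxd3 held one of 52.7, Tfap2c, the gene of transcription factor AP-2 gamma, one of 52.9 that is 2117 bp wide, and Foxc2, a forkhead gene of mesoderm, lay 2.70 kb from one of 53.6. These last 3 overlapped Trim33 and not H3K27ac. Myl3, a myosin light chain gene, was the nearest gene to a peak of 53.6 at 11.8 kb.

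The widest peak had 8248 bp, inside Myo18a on chromosome 11 (77820309 to 77828556), and its fold was 27.9. It was followed by one of 6927 bp near Fxyd2, which encodes a regulator of the sodium pump, and by 6779 bp in Foxn1, the thymus transcription factor gene. Those in Golga2, a Golgi matrix gene, and Dapk1, a kinase gene of cell death, had 6234 and 6141 bp. None of the 5 overlapped an H3K27ac peak, and their folds lay between 19.5 and 30.0. Over all widths, H3K27ac overlap was 5.79% for peaks up to 250 bp, 7.01% up to 500 bp, 10.9% up to 1000 bp, 10.7% up to 2000 bp and 8.38% for the 1372 peaks over 2000 bp, so it was lowest in the narrowest peaks.

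Summits lay inside 9732 of 20665 autosomal protein-coding genes (47.1%), with 5 or more in 1635 genes and 20 or more in 37. Long genes had more, with a rank correlation of 0.54 between summits and length over the 20665 genes. The highest counts, 57, 54 and 51, belong to Gm37013, Gm38666 and Gm38667. These are overlapping gene models of 868 to 889 kb over the protocadherin array of chromosome 18, so they count nearly the same summits. H3K27ac overlapped 1 of the 57 peaks, against 8.25% of all autosomal CTCF peaks.

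Gse1 came next with 49 summits in 353 kb, or 13.9 per 100 kb against 2.79 over all protein-coding genes. Its folds ran from 3.44 to 44.8. Of its 49 peaks, 4 overlapped H3K27ac and 6 Trim33, against 8.25% and 3.70% of all autosomal CTCF peaks. Camta1, a calmodulin-binding transcription activator gene, had 48 in 802 kb, and Nav2, a neuron navigator gene, 36 in 651 kb. Agap1, a gene of Arf GTPase control, had 32, Asic2, an acid-sensing channel gene, 30 and Slc39a11, a zinc transporter gene, 28. Dnah8, an axonemal dynein gene, and Kalrn had 27 each. Cacna1a, a calcium channel gene, and Cdh13, a cadherin gene, had 26, and Abr and Pde4d, a phosphodiesterase gene, 25. Density was below the value over all genes in 3 of the 15, with 1.92 per 100 kb in Pde4d, 2.19 in Cdh13 and 2.76 in Asic2.

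How a gene ranked depended on how close peaks were counted. Joined within 2 kb, Gse1 had 25 sites and Camta1 28, while Gm37013 kept 47, and 9 of the 15 genes stayed among the first 15. Of the 28 summits in Slc39a11, 7 were at or above the median fold of the list, against 16 of 25 in Pde4d. The 3 models of the protocadherin array led under both ways of counting.

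**Figure D5:**
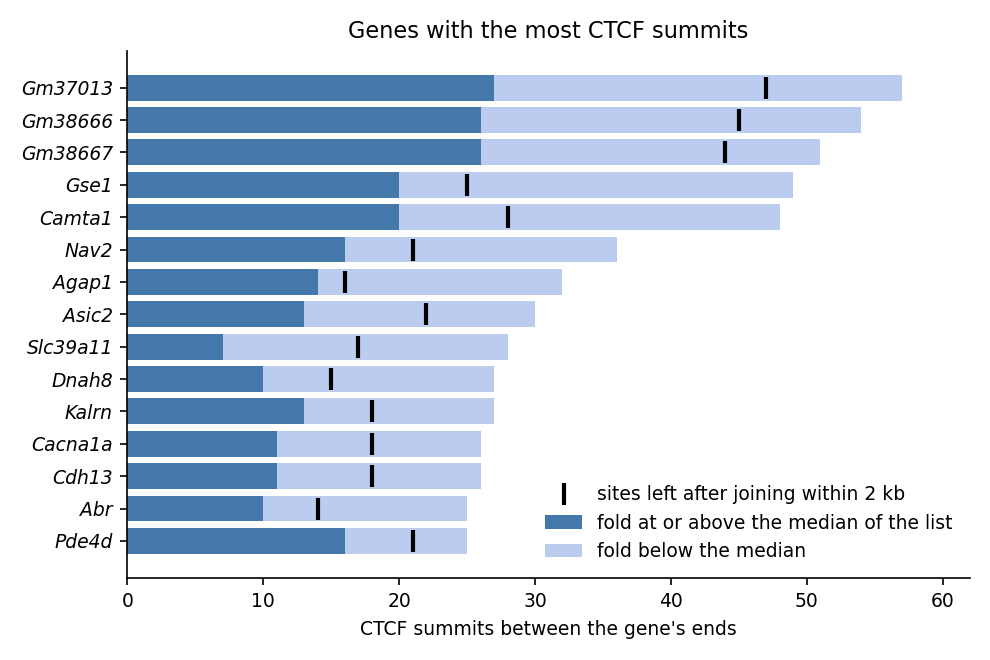
Number of CTCF summits between the ends of the 15 protein-coding genes with most of them, split into peaks at or above the median fold (dark) and below it (light), with a tick at the number of sites left after joining within 2 kb. Gm37013 has 57 summits and 47 sites, and Gse1 has 49 summits and 25 sites.

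By density, short genes came first. Among genes with at least 5 summits, Fut7, a fucosyltransferase gene, had 5 within 4.02 kb, with folds from 4.57 to 6.22, and none of them was the highest of its group. Hdac10, a deacetylase gene, had 5 within 5.40 kb with a highest fold of 29.4, and 2 of them overlapped H3K27ac. Daxx, which encodes a histone chaperone, and Rab25, a small GTPase gene, had 5 each with highest folds of 11.4 and 7.64. Fam71e1 had 6, and Vsig10l 7 with a highest fold of 32.7. The last of the 8 were 1700003E16Rik and Polr2c, an RNA polymerase II subunit gene, with 5 each and highest folds of 29.0 and 18.6. Of these 8 genes, none kept more than 2 sites after joining, and none was among the 15 with the most summits.

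Gene groups differed in how often a CTCF summit lay within 1 kb of a gene end, which was so for 5659 of 20665 autosomal protein-coding genes (27.4%) and for 17.9% of all annotated genes. The clustered protocadherins, cell surface proteins whose promoters are chosen through CTCF looping, had 43 of 57 members with one (75.4%), from 30 distinct peaks. The highest were at Pcdhac1 with 31.0, Pcdhgc3 with 22.2, Pcdhga12 with 19.8 and Pcdhga11 with 19.03, none of these 4 over H3K27ac. The median over the 43 members was 14.04. A peak over H3K27ac was counted for 14 of the 43, but members that share a peak are counted more than once. In the array with 50 kb on each side, 4 of 70 peaks overlapped H3K27ac. Over all autosomal CTCF peaks the share is 8.25%, so few of 70 would overlap at this share. Olfactory receptor genes had 15 of 1100 (1.36%), with Olfr1373 and Olfr750 highest at 14.6, then Olfr94 with 13.3 and Olfr658 with 13.1. Vomeronasal receptor genes had 0 of 352, and 2 of them within 5 kb, where 51.7% of protein-coding genes had one.

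Ribosomal protein genes had 31 of 84 (36.9%), and these were among the highest, with a median of 23.1. Rpl26 had 44.4, Rps20 34.3 and Rps14 33.9, all over H3K27ac. Zinc finger genes with a Zfp symbol had 87 of 386 (22.5%), led by Zfp703 with 40.5, Zfp639 with 38.1, Zfp423 with 35.2 and Zfp746 with 30.2. Keratin genes had 6 of 53 (11.3%), led by Krt88 with 24.5, Krt8 with 22.6, Krt28 with 14.2 and Krt86 with 9.53. At or above the median fold, where the share of all protein-coding genes was 17.3%, ribosomal protein genes had 26 (31.0%), protocadherins 31 (54.4%), zinc finger genes 50 (12.95%), keratins 4 (7.55%) and olfactory receptors 9 (0.818%).

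Hox genes, which pattern the body axis, had 15 of 39 (38.5%) from 14 distinct peaks, none of them over H3K27ac. Hoxc10 had 45.1, Hoxa5 and Hoxa6 shared one of 38.3, and Hoxb5 had 35.5. Genes of cohesin and its partners had 6 of 14 (42.9%), all over H3K27ac. For comparison, H3K27ac overlapped 49.3% of summits near a protein-coding gene start only and 5.77% of those near a finish only. Starts and finishes were not separated in these lists. Pds5b and Pds5a, whose products regulate cohesin release, had 49.6 and 20.5, Esco1, an acetyltransferase gene of cohesin, 46.4, and Smc3, a core subunit gene, 18.3. Ctcf itself had 3 summits inside, with folds from 5.70 to 14.9, the highest of them within 1 kb of its end, while Trim33 had no CTCF summit inside or within 1 kb of an end. Imprinted genes had 16 of 45 (35.6%, with 8 noncoding genes in the list), led by H13 with 41.6, Magel2 with 24.5, Peg13 with 21.8 and the shared peak of Peg10 and Sgce with 16.2. At or above the median fold there were 9 Hox genes (23.1%), 5 of the cohesin list (35.7%) and 8 imprinted genes (17.8%), the last near the 17.3% of all protein-coding genes.

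Lists of germ layer genes were small, and their counts are given as such. Primitive streak genes had 9 of 20, with Snai1, the repressor of epithelial genes, at 41.3, Eomes, a T-box gene, at 32.0, Mesp1 at 20.7 and Sp5, a Wnt target, at 14.7. Neural genes had 6 of 15, with Irx3 at 26.1, Nes, the gene of nestin, at 21.4, Hes5 at 14.2 and Olig2 at 13.8. Pluripotency genes had 5 of 16, with Tbx3 at 21.4, Tfcp2l1 at 9.76, Sall4 at 9.22 and Utf1 at 5.96. Endoderm genes had 5 of 14, with Lama1, a laminin gene, at 16.1, Apoa1 at 15.1, Cxcr4 at 14.8 and Gata6 at 13.2. Cardiac and endothelial genes had 5 of 21, with Lmo2, a haematopoietic regulator, at 20.9, Gata6, Gata2 at 8.42 and Cdh5, the gene of VE-cadherin, at 7.14. At or above the median fold the counts were 6 for streak, 4 for neural, 2 for pluripotency, 4 for endoderm and 2 for cardiac and endothelial genes. The lists differ from 27.4% by few genes, and no test of them was made.

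Loci known for CTCF differed in density. Around a value of 21.0 peaks per Mb for all autosomes, the Hox clusters with 20 kb on each side had 13 peaks at HoxA, 19 at HoxB, 7 at HoxC and 17 at HoxD, or 89.3, 88.8, 44.95 and 124 per Mb. Windows of 1 Mb with 20 or more protein-coding genes had a median of 50 peaks, so gene-rich sequence is denser than the value for all autosomes. Joined within 2 kb, the clusters had 9, 11, 5 and 8 sites. None of the peaks in these 4 clusters overlapped H3K27ac, against 8.25% of all autosomal CTCF peaks. The highest HoxA peak, of fold 38.3, lay inside the annotated Hoxa3 and is the same peak as the one shared by Hoxa5 and Hoxa6. At HoxB, HoxC and HoxD the highest folds were 35.5 beside Hoxb5, 45.1 beside Hoxc10 and 52.7 inside Hoxd3. The protocadherin array with 50 kb on each side had 70 peaks in 1012 kb, and 52 sites were left after joining, and the highest, 39.7, lay in the neighbouring gene Diaph1.

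At both globin loci, with 50 kb on each side, the counts were 1 and 14. The beta-globin cluster had a single peak of 8.29 beside Hbb-bt, whereas the alpha-globin cluster had peaks up to 37.2, that one beside Sh3pxd2b. The immunoglobulin heavy chain locus had 21 peaks in 2.66 Mb, with a highest fold of 13.9. The megabase around the constant gene of the T cell receptor alpha locus had 61, of which 14 overlapped H3K27ac, against 8.25% of all autosomal CTCF peaks.

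The imprinted H19 and Igf2 region held 6 peaks, where the control region between both genes is a textbook CTCF insulator. The highest peak had a fold of 35.5, at chromosome 7 from 142579823 to 142582479. Beside it lay one of 21.3, and another of 21.8 at 39968 bp from Igf2. Inside Igf2 there was one of 6.08, and toward Ins2 there were 13.97 and 10.3. The Kcnq1 and Cdkn1c domain had 18 peaks with a highest fold of 24.9 inside Kcnq1. The Dlk1 and Dio3 domain had 31, with the highest, 36.3, at 14.6 kb from Dlk1.

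At single genes with well-studied surroundings, Myc had 4 peaks within 100 kb, of 11.2, 26.4, 13.3 and 15.1, and the highest stood 1.92 kb outside the gene and overlapped Trim33. Sox2, a pluripotency and neural gene, had 6 within 150 kb, of 11.4, 5.30, 20.3, 25.7, 28.7 and 7.55, the highest at 2.08 kb from the gene and over H3K27ac. Nanog had 22 within 100 kb, with 42.8 at 37.9 kb from the gene, and 9 of the 22 overlapped H3K27ac. Shh with Lmbr1, which holds the limb enhancer of Shh, had 11 peaks, with 37.2 at 2.86 kb from Shh. The interval of Epha4 and Pax3 had 18, with 45.3 at 1.34 kb from Epha4. In the 1762 kb of Kcnj2 and Sox9 there were 15 peaks, none above 16.7 and none over H3K27ac or Trim33. Over all autosomal CTCF peaks the shares are 8.25% for H3K27ac and 3.70% for Trim33, so few of 15 would overlap at these shares.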

How the data were processed

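Chromatin from day 6 embryoid bodies was sequenced by the authors as 1 CTCF, 1 Trim33, 1 H3K27ac and 1 input library. Tools listed in the submitters' processing notes, without their roles, are SICER 1.1, BWA 0.7.12, MACS2 and MACS. The same notes list hg19 beside mm10. The authors' deposited summary gives MACS 2.1.0. Per that deposited summary, unique alignments without duplicates on mm10 were used, peaks of the CTCF library were called against the input, and 210 CTCF peaks in blacklisted regions were removed. Each line of the deposited lists holds the position, the fold or ratio of the summit to background, p and q as −log10 values, and the summit's offset, all made by the authors. The authors' deposited table also gives counts of peaks, CpG islands and genes per chromosome. Depth was 33090822 CTCF tags. With 1 library, intervals (95%, Wilson or exact Poisson) cover counting error over peaks, windows or matches only. Neighbouring peaks are not independent, and neither are promoter windows that overlap.

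All other values were computed by functions tested on simulated data, in Python 3.11.15 (scipy 1.17.1, pandas 2.3.3, numpy 2.4.6; figures with matplotlib 3.10.9). Fold was used only within a list. Overlap means at least 1 bp shared. Gene ends were read from a RefSeq table (GRCm38.p6) that has no strand and no exons. Strand came from the RefSeq promoter table, which covers 25748 genes and none on chromosome 18. The motif was searched only in those windows.

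Members, gene lists and loci were chosen with earlier results of these data known. The genes named were the holding or else the nearest protein-coding gene of the 20 highest peaks, the 15 genes with the most summits, the 8 with the most per 100 kb, genes at the 5 largest runs and 5 widest peaks, up to 4 members per list and every locus. A member of 1 list is not reported here. Individual genes named for the densest windows were chosen after those windows were seen. Alternatives were a stricter list (−log10 q of at least 20), peaks at or above the median fold, other windows, links and motifs, and summits within 2 kb joined.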

Additional observations from a re-analysis of the deposited data

Results flagged for a closer look

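Outside the autosomes, 826 CTCF peaks lay on chromosome X, a signal in data that the comparisons above do not use. This is 4.83 peaks per Mb, against 21.0 over the autosomes and 14.7 on the sparsest of them, and 1.80 peaks per CpG island, against 3.32.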

How the results depend on the processing

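Number, spacing and runs depend on how the lower peaks are treated, and the shares at gene ends and with a motif more on the window and the motif. With a −log10 q of at least 20, 29693 autosomal peaks were left, the median spacing was 27997 bp and the ratio of the densest to the sparsest autosome 2.17. Among peaks at or above the median fold, the median width was 750 bp, the spacing 33619 bp, the share in runs 1.97%, the share within 1 kb of a gene end 18.8%, the ratio of autosomes 2.101 (with chromosome 14 the sparsest) and the share of promoter windows with the core motif 17.02%. Joining summits within 2 kb, added after seeing the data, gave a median fold of 12.6, a width of 536 bp, a spacing of 25574 bp, a share in runs of 3.17% and a ratio of 2.09. Edge to edge, the median spacing was 10480 bp. The share in runs was 12.9% with a link of 5 kb, 42.4% with 20 kb and 48.7% with at least 3 summits. Near gene ends, the share was 46.8% within 5 kb and 12.9% for protein-coding genes only. Per protein-coding gene, the ratio of autosomes was 1.64, with chromosome 5 highest and 7 lowest. The looser motif gave 34.8%, and summits within 100 bases of the window 10.5%. The cause of these shifts was not tested beyond the construction of each alternative. Including chromosome X left the median fold at 9.46, and no peak shared both start and end with another, so joining such lines changed nothing. No paired analysis was possible because each group has 1 library and no result comes from a test. Depth limits the lower end of the list, where the lowest −log10 p was 7.03, the lowest −log10 q 5.11 and the lowest fold 2.81. A site without a peak may fall below detection.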
